A study of Mus musculus with 33 samples.

Results

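The genes described here are the suppressors of cytokine signalling (SOCS) Socs1, Socs2, Socs3, Socs4, Socs5 and Socs7, the SOCS-family gene Cish and the 3 Pim kinase genes Pim1, Pim2 and Pim3. They were taken by symbol, and these 10 genes were all found among the 55376 gene symbols of the RNA-seq files. The set was chosen by measured values, namely lower levels of Socs2 and Pim2 in hematopoietic stem cells (HSCs) of mice given nicotinamide riboside (NR), an NAD+ precursor. The 33 libraries were made from sorted bone marrow cells of old male C57BL/6 mice (24–29 months), which were untreated (O-WT), had received NR in the drinking water for 4–6 weeks (O-NR), or had received NR followed by 2 months without it (O-NR-RC). Cohort 2 held 24 libraries, with 4 O-WT and 4 O-NR libraries for each of 3 cell types, which were HSCs, the common progenitors of lymphoid cells (CLPs), and the progenitors of granulocytes and monocytes (GMPs). Cohort 1 held 9 HSC libraries, with 4 from O-NR mice, 3 from O-NR-RC mice and 2 from O-WT mice. For the GMP libraries the titles say GMP while the source field says common myeloid progenitor, and GMP is used here. The labels do not say that each library is a separate mouse, so p-values measure the spread between these libraries.

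Cytokine receptors on blood progenitors, among them that for interleukin-7, carry JAK kinases that phosphorylate STAT transcription factors. Activated STATs induce Cish, Socs1, Socs2 and Socs3, whose proteins bind receptors or JAKs and damp the same signal, so that the messages of these genes are used as readouts of recent cytokine signalling. Pim1, Pim2 and Pim3 encode serine/threonine kinases without a regulatory switch, whose amount follows their transcription, and Pim1 and Pim2 are STAT5 targets that support the survival of blood cells. Socs4, Socs5 and Socs7 are less well tied to STAT induction, and Socs4 and Socs5 also act on receptor tyrosine kinases.

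Promoter sequences are shown for 3 genes because they hold motifs of the factors that drive feedback induction. Windows from 250 bases before to 50 bases after the start of transcription (RefSeq, GRCm38.p6) were at hand for 7 of the 10 genes. Socs2, Socs5 and Socs7 were not in the table. The STAT motif TTCNNNGAA, which reads the same on both strands, occurred 2 times in the Cish window, beginning at bases 1 and 12 counted from the start, and 1 time in the Socs3 window, beginning 154 bases before the start. It was not found in these windows of Socs1, Socs4, Pim1 (2 windows), Pim2 or Pim3. Of 32851 mouse windows of the same length, 8.3% held the motif and 0.457% held it 2 or more times. An interferon-type motif, GAAA followed by any 2 bases and GAAA again, was searched on both strands and, among these genes, occurred in the Socs1 window only, 2 times and overlapping itself, from 83 and 77 bases before the start, and in 3.44% of all windows. It was searched after Socs1 had been seen to vary with interferon-response genes. A match is a run of letters and not a measured site. Capitals mark TTCNNNGAA in Cish and Socs3 and the interferon-type motif in Socs1. The Cish stretch holds 30 bases around the start, at chr9:107296654-107296683 on the plus strand. The other stretches hold the 250 bases before the start, at chr11:117969367-117969616 for Socs3 and chr16:10785537-10785786 for Socs1, both on the minus strand. These starts are those of RefSeq. The Cish and Socs3 stretches lie inside the Gencode positions of these genes given below, so Gencode places the starts of both farther upstream.
Cish: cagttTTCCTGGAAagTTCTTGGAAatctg
Socs3: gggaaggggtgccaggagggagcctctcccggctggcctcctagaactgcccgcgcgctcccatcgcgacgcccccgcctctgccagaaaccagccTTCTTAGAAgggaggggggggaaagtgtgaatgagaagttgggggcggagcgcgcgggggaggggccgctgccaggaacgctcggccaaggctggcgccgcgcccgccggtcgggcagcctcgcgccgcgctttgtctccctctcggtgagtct
Socs1: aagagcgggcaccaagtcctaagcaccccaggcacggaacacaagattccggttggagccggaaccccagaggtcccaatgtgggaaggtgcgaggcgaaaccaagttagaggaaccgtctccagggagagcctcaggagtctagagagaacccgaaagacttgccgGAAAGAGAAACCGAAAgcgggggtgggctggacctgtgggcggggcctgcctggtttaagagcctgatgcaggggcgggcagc

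The libraries held 4792380 to 23816042 counted reads. Levels are given as counts scaled to 1000000 counted reads (CPM) after scaling by the trimmed mean of M-values (TMM), set within each cohort, so levels of the cohorts are not on 1 scale. The sorted cells carried their own markers, with 10 HSC markers summing to 1850–2542 CPM in HSCs of cohort 2 and to 96.8–182 CPM in CLPs and GMPs. In cohort 2, 9 CLP markers summed to 2021–4849 CPM in CLPs and to 128–190 CPM in HSCs and GMPs. The 10 GMP markers summed to 16960–25392 CPM in GMPs, 426–829 CPM in CLPs and 196–276 CPM in HSCs. The 9 neutrophil markers reached 190 CPM in CLPs, 63.2 CPM in GMPs and 24.4 CPM in HSCs. The source of the myeloid messages in CLPs was not tested. None of the HSC, CLP, GMP, B and plasma cell, neutrophil, red cell or T and NK cell markers listed was at 0 reads in any group. The 1971 olfactory and vomeronasal receptor genes, which blood cells are not known to use, summed to 858–8303 CPM of all counted reads in cohort 2 and to 4445–15260 CPM in cohort 1, called receptor signal here. In sorted pools such as these, fewer cells of a type and less RNA per cell cannot be told apart.

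Most of these genes were highest in HSCs. In untreated old mice of cohort 2, 8 of the 10 genes were called higher in HSCs than in CLPs and 0 lower, where 26.2% of 20044 genes tested were called, 17.7% higher and 8.59% lower. The call required an adjusted p under 0.05 and a fold over 1.5 (edgeR's quasi-likelihood test, Benjamini-Hochberg over all genes tested). Compared with GMPs, 7 genes were called higher in HSCs and 0 lower, where 41.6% of all genes were called, 23.9% higher and 17.7% lower. In 6 of 10 genes all HSC libraries lay above all CLP libraries and in 7 above all GMP libraries, while 29.2% and 41.3% of all genes did not overlap in these pairs (7.68% and 19.4% with HSCs lower). The median log2 difference of the 10 genes was 1.21 for HSCs minus CLPs and 1.72 for HSCs minus GMPs, beside −0.04 and 0.40 for all genes tested. Measured from that median of all genes, 8 and 7 members stood more than 1.5-fold above it under TMM, under size factors and under total counts alike, and Socs4 stood more than 1.5-fold below it against GMPs. Total counts moved that median to −0.25 against CLPs and 0.69 against GMPs, and size factors moved it to −0.12 and 0.13. The HSC libraries are those in which Socs2 and Pim2 were first noted, so the contrasts of these 2 genes with HSCs are not independent of the choice. Both genes are among those called higher in HSCs against CLPs and against GMPs. The counts of members and the medians of the 10 genes given here include them.

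Pim1 (chr17:29490753-29496112, plus strand, mm10) was by far the most abundant of the 10 genes per length. In O-WT HSCs it reached 96.3 ± 21.7 CPM per kilobase of exon (SD, n = 4), and Pim2 followed with 16.5 ± 2.95. Pim1 also ranked first per length in O-WT CLPs, at 27.2 ± 6.23, and in O-WT GMPs, at 30.8 ± 11.3. The 4 O-WT HSC libraries held 380.0, 221, 322 and 371 CPM of Pim1, the CLP libraries 107, 82.3, 66.3 and 111 CPM, and the GMP libraries 118, 133, 115 and 48.1 CPM. All HSC libraries lay above all CLP and GMP libraries, with a log2 difference of 1.78 ± 0.23 (SE) from CLPs (adjusted p = 2.041e-07, edgeR's quasi-likelihood test) and of 1.68 ± 0.23 from GMPs (adjusted p = 3.392e-07). CLPs and GMPs overlapped and did not differ beyond their spread, with a log2 difference of −0.10 ± 0.23. An antisense gene, Gm26885, overlaps Pim1, and the strand setting of the counting is not given in the sources used here, so reads of this pair may be mixed.

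Pim2 (chrX:7878262-7883432, plus strand) was also highest in HSCs. It measured 50.7, 48.6, 33.9 and 51.2 CPM in O-WT HSCs, 8.87, 4.80, 4.5 and 6.19 CPM in CLPs, and 3.59, 4.97, 2.56 and 2.12 CPM in GMPs. HSCs were 7.30-fold above CLPs (adjusted p = 7.402e-12, edgeR's quasi-likelihood test) and 14.2-fold above GMPs (adjusted p = 1.605e-14), and no HSC library overlapped either. Pim2 was chosen by its level in HSCs, so these p-values are not independent of the choice. Pim3 (chr15:88862186-88865726, plus strand) was flatter, at 15.2 ± 4.12 CPM in O-WT HSCs and 13.8 ± 2.5 CPM in GMPs, with CLPs at 7.68 ± 2.58 CPM. It was called higher in HSCs than in CLPs (log2 difference 0.93 ± 0.24) and lower in CLPs than in GMPs (−0.75 ± 0.24). HSCs and GMPs did not differ beyond their spread in Pim3, and the sign of that difference turned with the scaling, from 0.17 to −0.05 with the size factors.

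The STAT-induced members Socs3, Cish, Socs2 and Socs1 were called higher in HSCs than in both progenitors. Socs3 (chr11:117966079-117970047, minus strand), which shuts off signalling by the interleukin-6 and G-CSF receptors, measured 60.8, 22.4, 46.9 and 20.8 CPM in O-WT HSCs, 7.23, 3.13, 5.30 and 3.83 CPM in CLPs and 1.83, 1.42, 4.45 and 2.20 CPM in GMPs. HSCs stood 7.48-fold above CLPs and 15.5-fold above GMPs (adjusted p = 8.403e-09 and 2.109e-11, edgeR's quasi-likelihood test). The HSC libraries themselves spread widely, with replicates 2 and 4 low, yet none overlapped with a progenitor library.

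Cish (chr9:107296026-107302784, plus strand), a classical STAT5 target whose protein occupies STAT5 docking sites on receptors, measured 71.3, 33.1, 45.4 and 134 CPM in O-WT HSCs. CLPs held 17.2, 16.4, 14.2 and 17.4 CPM, and GMPs 7.33, 5.52, 4.45 and 6.84 CPM. The 3 cell types did not overlap, with HSCs 4.19-fold above CLPs (adjusted p = 1.024e-07, edgeR's quasi-likelihood test) and CLPs 2.85-fold above GMPs (adjusted p = 5.337e-05). The genes Gm17040 and Gm17041 lie on the opposite strand within Cish, so their reads may be counted with it.

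Socs2 (chr10:95385362-95417180, minus strand), which limits growth hormone and STAT5 signalling, had the lowest level per length of the 10 genes in each of the O-WT groups, from 2.32 ± 1.16 CPM per kilobase in HSCs to 0.308 ± 0.117 in GMPs. That rank depends on the length used, all annotated exons merged, which at 9531 bases was the longest of the 10 genes. In plain CPM, Socs1 was the lowest in each O-WT group. Socs2 measured 13.1, 29, 12.3 and 34.0 CPM in O-WT HSCs, 8.76, 11.8, 9.80 and 13.4 CPM in CLPs, and 3.97, 2.05, 1.90 and 3.83 CPM in GMPs. CLPs were 3.92-fold above GMPs (adjusted p = 7.094e-06, edgeR's quasi-likelihood test) without overlap. HSCs overlapped with CLPs, and their log2 difference of 0.97 ± 0.29 was called, but not without O-WT HSC replicate 4, when it was 0.64. As with Pim2, a contrast of Socs2 with HSCs is not independent of the choice. Socs1 (chr16:10782240-10785536, minus strand), the strongest inhibitor of interferon signalling in the family, stepped down from 8.09 ± 1.34 CPM in HSCs to 3.85 ± 0.920 CPM in CLPs and to 2.43 ± 0.319 CPM in GMPs. It was called in each pair, but the CLP and GMP levels rest on 21–60 reads a library, and their difference of 0.75 ± 0.32 was lost with replicate number as a block (0.74), with size factor scaling (0.58) and when any of 7 of the 8 CLP and GMP libraries was left out. CLP replicate 3, which had the strongest receptor signal of cohort 2 (8303 CPM), decided the call of Socs1 in HSCs over CLPs (0.84 without it) and of Pim3 in CLPs below GMPs (−0.56 without it).

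**Figure D1:**
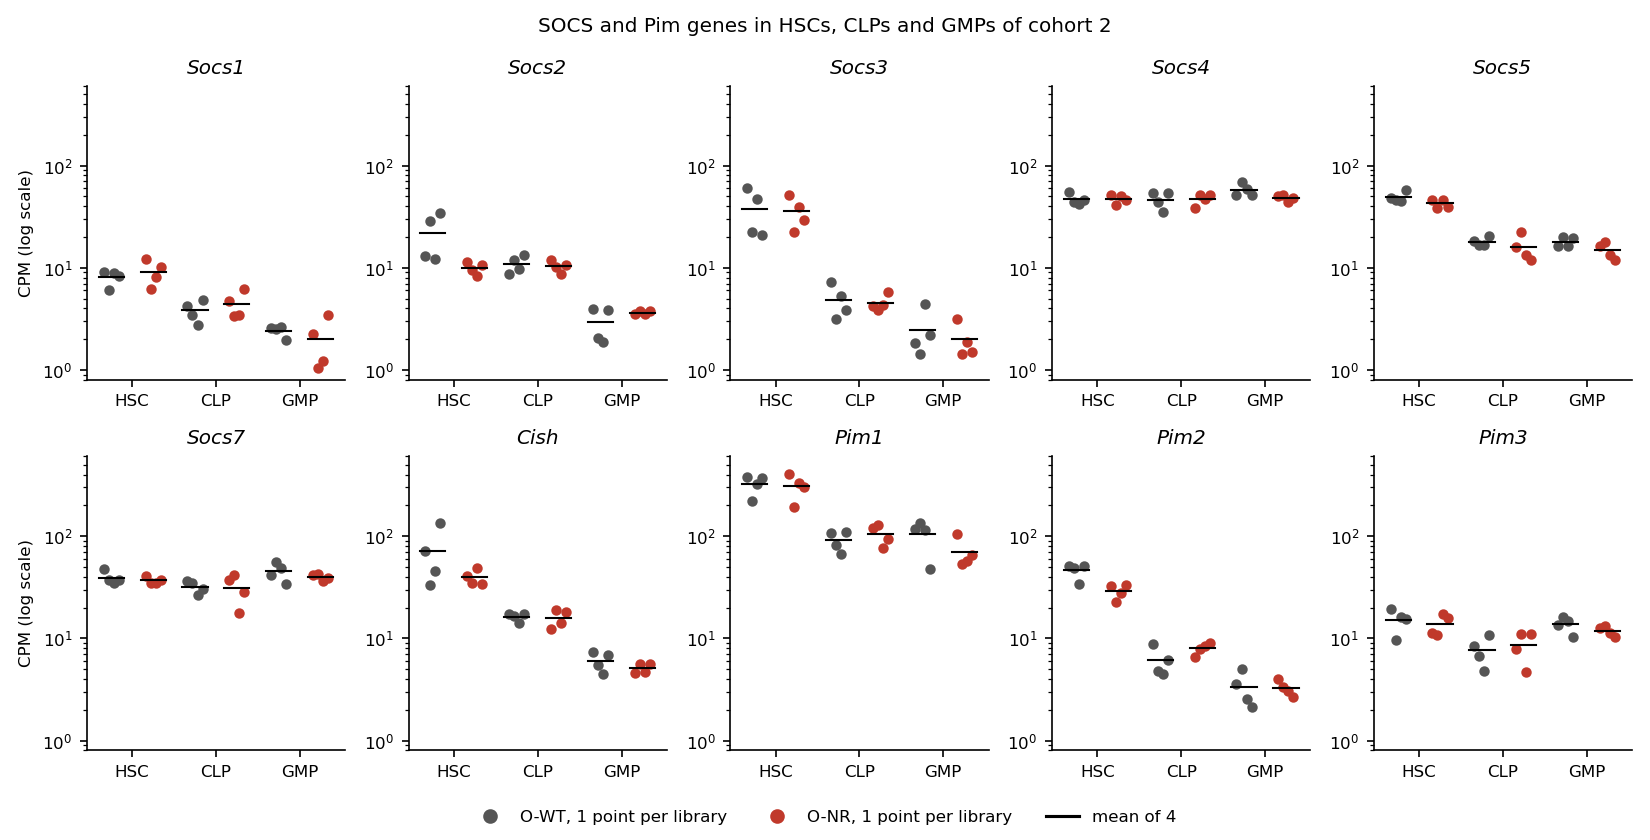
Levels of the 10 genes in cohort 2, 1 panel per gene, with CPM on a log axis and the cell type on the horizontal axis. Each point is a library (grey O-WT, red O-NR, 4 per group) and each black line is a mean. Pim1, Pim2, Socs3, Socs5 and Cish sit higher in HSCs, while Socs4 and Socs7 run level across the panels.

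Socs5, Socs4 and Socs7 did not move together. Socs5 (chr17:87107679-87137839, plus strand) measured 48.5, 45.6, 45.0 and 57.4 CPM in O-WT HSCs against 16.6–20.3 CPM in CLPs and 16.2–20 CPM in GMPs. It was 2.64-fold higher in HSCs than in CLPs and 2.78-fold higher than in GMPs (adjusted p = 1.359e-08 and 2.541e-09, edgeR's quasi-likelihood test), with no overlap. Socs4 (chr14:47276931-47296102, plus strand) kept to a like level, with 46.9 ± 5.78 CPM in O-WT HSCs, 57.7 ± 8.78 CPM in GMPs and 46.4 ± 8.71 CPM in CLPs. No pair of cell types was called, and the 95% interval of its difference between HSCs and CLPs ran from −0.36 to 0.29 on the log2 scale. Socs7 (chr11:97362551-97398542, plus strand) stood at 39.2 ± 5.49 CPM in HSCs, 45.2 ± 9.49 CPM in GMPs and 31.8 ± 4.48 CPM in CLPs. It was not called in any pair, with −0.42 ± 0.17 for CLPs minus GMPs, which became a call of −0.60 with size factor scaling.

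The comparison of CLPs with GMPs was the least settled. In O-WT mice, 5 genes were called higher in CLPs (Socs1, Socs2, Socs3, Cish and Pim2) and 1 lower (Pim3), where 55.5% of all genes were called, 33.8% higher and 21.7% lower, so the share of members called is close to that of all genes. Measured from the median of all genes, which was 0.32 higher in CLPs, 4 members stood more than 1.5-fold above and 2 below. The groups did not overlap in 3 members, all higher in CLPs, beside 45.4% of all genes (23.4% lower in CLPs). The call of Socs3 (log2 difference 1.05 ± 0.35) was lost with DESeq2 (0.89), without the CPM filter (0.69) and without CLP replicate 1 (0.76) or GMP replicate 1 (0.80) or 2 (0.70). That of Pim2 (0.96 ± 0.25) was lost without the filter (0.59). Over the 8 libraries of each cell type, 3 genes of this comparison ran against the receptor signal, which was 2115–8303 CPM in CLPs and 858–2376 CPM in GMPs. Pearson's r was −0.956 in CLPs and −0.804 in GMPs for Pim1, −0.770 and −0.894 for Pim3, and −0.649 and −0.978 for Socs7, and Spearman's rho was −0.952 and −0.833, −0.714 and −0.929, and −0.833 and −0.976. Without the 2 libraries of most extreme signal, r was −0.906 and −0.689 for Pim1, −0.552 and −0.819 for Pim3, and −0.642 and −0.955 for Socs7. The part of the receptor signal in the result was not tested. These correlations used TMM-scaled levels, and the TMM factors themselves tended to be larger where the receptor signal was stronger. In CLPs the factor was 0.983 at the weakest signal (O-NR replicate 2) and 1.58 at the strongest (O-WT replicate 3). In GMPs it was 0.696 and 1.04 (O-WT replicates 2 and 4). The correlations were not computed per total counted reads.

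The O-NR libraries of cohort 2 are other samples and gave a second measurement of the same differences. The O-NR HSC libraries are also part of the contrast taken to have chosen the genes. The O-NR differences of Socs2 and Pim2 from HSCs, and the counts that include them, are therefore not independent of that choice. In the O-NR libraries, 6 of 10 genes were called higher in HSCs than in CLPs and 0 lower (33.4% of 18080 genes called, 16.9% higher and 16.6% lower). Against GMPs, 7 were called higher in HSCs and 0 lower (38.6% of all genes called, 18.4% higher and 20.2% lower). In CLPs against GMPs, 6 were called higher and 0 lower (40% of all genes called, 21.8% higher and 18.2% lower). The groups did not overlap in 5, 7 and 4 members in these pairs, none of them lower, beside 34.7%, 47.6% and 41.5% of all genes (10.7%, 21.6% and 23.5% lower). Socs3 was 7.07-fold higher in O-NR HSCs than in CLPs and 16.3-fold higher than in GMPs (adjusted p = 8.102e-10 and 1.725e-12, edgeR's quasi-likelihood test). Cish was 2.23-fold and 7.06-fold higher, Pim1 2.64-fold and 4.01-fold, and Socs5 2.41-fold and 2.62-fold. Pim2 was 3.27-fold higher in O-NR HSCs than in CLPs and 8.06-fold higher than in GMPs. Socs2 levels in O-NR HSCs (8.36–11.3 CPM) overlapped with those of O-NR CLPs (8.68–12 CPM), with a log2 difference of −0.22 ± 0.23 that was not called. Pim1 was called higher in O-NR CLPs than GMPs (0.60 ± 0.21, adjusted p = 0.02044 by edgeR's quasi-likelihood test), but not with size factor scaling (0.55), without the CPM filter (0.41), by DESeq2 (0.55), or without any of 5 of the 8 CLP and GMP libraries, of which GMP replicate 2 moved it most (0.44). Socs1 in O-NR HSCs over CLPs (0.88 ± 0.35) was lost without any of 6 of the 8 libraries, and in CLPs over GMPs (1.19 ± 0.37) without GMP replicate 2 (0.93). Whether a difference between cell types was larger in O-WT than in O-NR mice was not tested for the pairs with HSCs, since such a test would use the contrast that chose the genes.

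**Figure D2:**
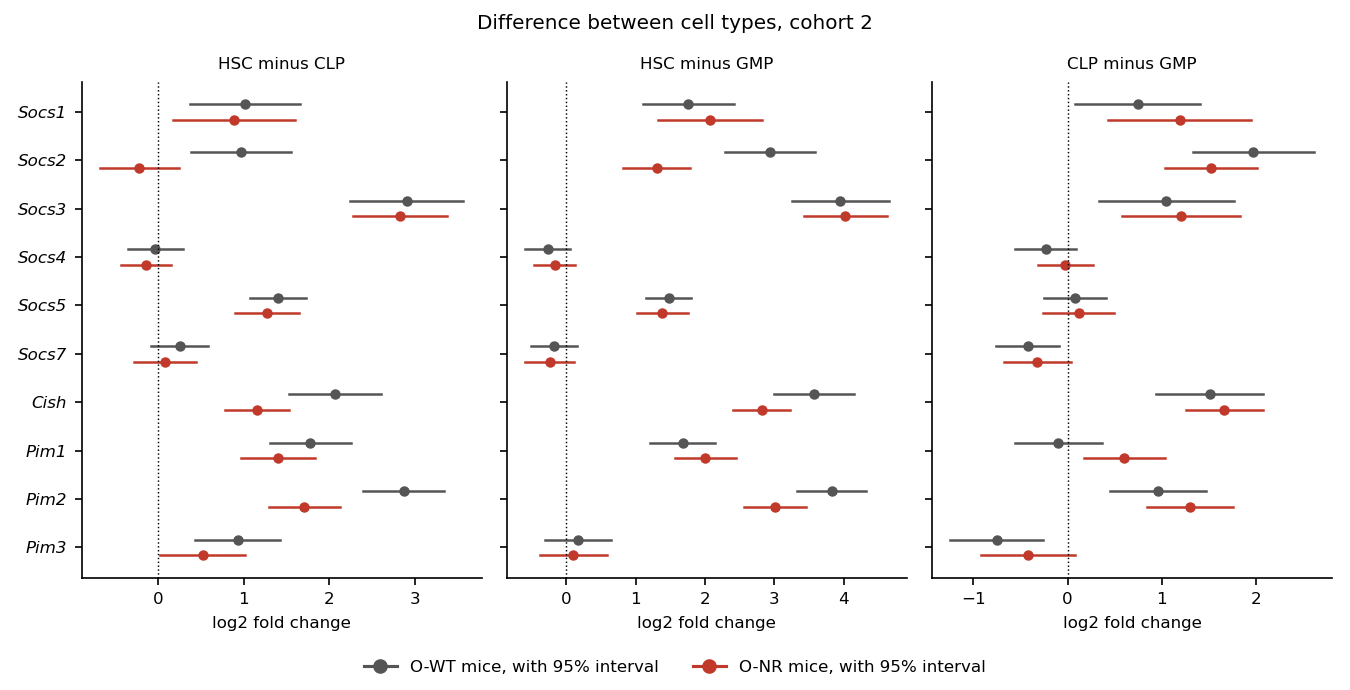
Fitted log2 differences of the 10 genes between HSCs and CLPs, HSCs and GMPs, and CLPs and GMPs in cohort 2, for O-WT mice (grey) and O-NR mice (red), with 95% intervals. Socs3 and Pim2 lie farthest to the right in O-WT HSCs minus GMPs (3.95 and 3.83), and Socs4 lies near 0 throughout.

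Several genes of the surrounding pathway were also higher in HSCs. Of 11 JAK and STAT genes tested, 8 were called higher in O-WT HSCs than in CLPs and 0 lower, with a median log2 difference of 0.76. Beside this and the list counts that follow, 26.2% of all genes were called between HSCs and CLPs, 41.6% between HSCs and GMPs and 55.5% between CLPs and GMPs. Jak3, a kinase of common gamma chain receptors, held 180.1 ± 27.8 CPM in O-WT HSCs, 55.0 ± 13.4 CPM in GMPs and 53.4 ± 11.5 CPM in CLPs. Stat3 was 1.90 ± 0.20 and Stat5a 1.49 ± 0.17 higher in HSCs than in CLPs on the log2 scale (adjusted p = 1.803e-09 and 1.347e-08, edgeR's quasi-likelihood test). Against GMPs, 6 of the 11 were called higher and 0 lower, among them Jak3 (1.74 ± 0.19) and Stat4 (1.54 ± 0.17). In CLPs against GMPs, 1 was called higher (Stat4, 0.96) and 4 lower, among them Stat5a (−0.93) and Jak2 (−0.86).

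Cytokine receptors split by lineage. Of 28 tested, 10 were called higher and 9 lower in O-WT HSCs than in CLPs, and 9 higher and 8 lower than in GMPs. Il7r, the interleukin-7 receptor, held 240.5 ± 64.6 CPM in CLPs against 4.44 ± 1.76 in HSCs and 2.72 ± 1.55 in GMPs. Csf2rb, the shared beta chain of the GM-CSF and interleukin-3 receptors, held 175 ± 52.6 CPM in GMPs against 17.4 ± 3.78 in HSCs.

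Of 21 negative regulators of JAK-STAT signalling outside the SOCS family, 2 were called higher and 3 lower in O-WT HSCs than in CLPs, and 3 higher and 7 lower than in GMPs. The adaptor Sla2 was higher in HSCs (3.68 ± 0.23 over GMPs) and the adaptor Sh2b2 lower (−2.56 ± 0.23), both on the log2 scale. Other STAT-induced genes, 19 of which were tested, showed 9 calls higher and 2 lower in HSCs against CLPs, and 7 higher and 3 lower against GMPs, where Gfi1b was higher (3.08) and Cebpd (−1.90) and Myc (−1.13) lower. Pim substrates and partners, 15 genes, showed 6 higher and 4 lower against CLPs and 4 higher and 6 lower against GMPs. Mycn was far higher in HSCs (386 ± 131 CPM against 15.9 ± 3.79 in CLPs and 2.73 ± 0.83 in GMPs), and the phosphatase genes Cdc25a and Cdc25c were lower (−1.32 and −1.93 against CLPs).

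The genes whose levels over the 24 libraries of cohort 2 were most like each member were read from 22572 other genes by Pearson's r of log2 CPM. The libraries share cell types and depth, so these values mostly follow differences between cell types. Socs1 was closest to Irf9, Tgtp2 and Isg15 (r = 0.944, 0.943 and 0.943), which are interferon-response genes. Pim2 was closest to Tnfsf10 (0.987) and Ddx58 (0.974), also known as interferon-induced, and to Cep170b (0.974). Pim1 was closest to Jak3 (0.961). Cish was closest to Itsn1 (0.965), Socs3 to Fam184a (0.976), Socs5 to Gprasp1 (0.977) and Socs2 to Nuak1 (0.904). Socs4 had the loosest match, Nxf1 (0.843), followed by Socs7 with Rnf6 (0.889) and Pim3 with Patz1 (0.922).

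In HSCs of cohort 2, the levels with NR are taken to be the values that chose the genes and are given as a description. Socs2 measured 13.1, 29, 12.3 and 34.0 CPM in O-WT HSCs and 11.3, 9.58, 8.36 and 10.6 CPM in O-NR HSCs. All O-NR libraries lay below all O-WT libraries, but O-WT replicates 1 and 3 lay close to the highest O-NR library. The fitted log2 difference of −1.21 rests mainly on O-WT replicates 2 and 4, and was −0.91 without replicate 4 and −1.02 without replicate 2.

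Pim2 measured 50.7, 48.6, 33.9 and 51.2 CPM in O-WT HSCs and 32.3, 22.6, 27.8 and 33.5 CPM in O-NR HSCs. The groups did not overlap, although O-WT replicate 3 and O-NR replicate 4 were nearly level, and the fitted log2 difference was −0.71. Cish measured 71.3, 33.1, 45.4 and 134 CPM in O-WT HSCs and 40.2, 35.0, 48.6 and 34.1 CPM in O-NR HSCs. These groups overlapped, and the fitted difference of −0.89 was −0.37 without O-WT replicate 4. Groups lower in O-NR without overlap occurred in 0.674% of the 17364 genes tested, and 0.726% of all genes passed an unadjusted p under 0.01.

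The other 7 genes overlapped between the groups, with fitted log2 differences from −0.25 for Socs5 to 0.13 for Socs1. Of the 10 genes, 9 had a negative difference, beside 54.6% of all genes, and the medians were −0.16 and −0.02. The count includes Socs2 and Pim2, which were chosen for being lower, and Pim1, Socs3 and Socs4 changed sign when 1 library was left out (−0.26 to 0.030, −0.34 to 0.21 and −0.071 to 0.057). Socs1, the gene with a positive difference, changed sign as well (−0.014 to 0.26). Pim1 held 324 ± 72.8 CPM in O-WT and 307 ± 85.9 in O-NR HSCs, and Socs3 37.7 ± 19.4 and 35.6 ± 12.9. O-WT replicate 4, the library highest in Socs2 and Cish, also had the highest sum of 10 B and plasma cell markers (735 CPM, with 67.2–219.9 CPM in the other O-WT and 25.7–129 CPM in the O-NR HSC libraries). O-WT replicate 2, the other library high in Socs2, had the strongest receptor signal of these HSC libraries (4671 CPM). The part of these markers and of the receptor signal in the results was not tested. Over the 8 HSC libraries, Socs4 and Pim1 ran against the receptor signal (Pearson's r = −0.866 and −0.815, Spearman's rho = −0.881 and −0.833, and r = −0.934 and −0.503 without the 2 libraries of most extreme signal), and Socs2 and Pim2 showed r = 0.312 and −0.108. These levels carry TMM factors, which were 0.919 at the weakest receptor signal (O-WT replicate 1) and 1.16 at the strongest (O-WT replicate 2). The 15 immediate early genes summed to 190–262 CPM in O-WT and 181–250 CPM in O-NR HSCs. Of the 14 tested, 10 had a negative difference and 4 a positive one. Cish, Socs5 and Pim1 ran with that sum (r = 0.778, 0.759 and 0.718, rho = 0.905, 0.881 and 0.81, and r = 0.572, 0.545 and 0.617 without the 2 most extreme libraries). Socs2 and Pim2 showed r = 0.199 and 0.39 with it, and its part in the results was not tested. Of the 11 JAK and STAT genes, 0 passed an unadjusted p under 0.01 in this contrast (edgeR's quasi-likelihood test), and 10 had a positive difference. Of the other pathway lists, 1 of 27 cytokine receptors and 1 of 15 Pim substrates and partners passed, both lower with NR. None passed in the remaining lists, beside 0.726% of all genes.

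**Figure D3:**
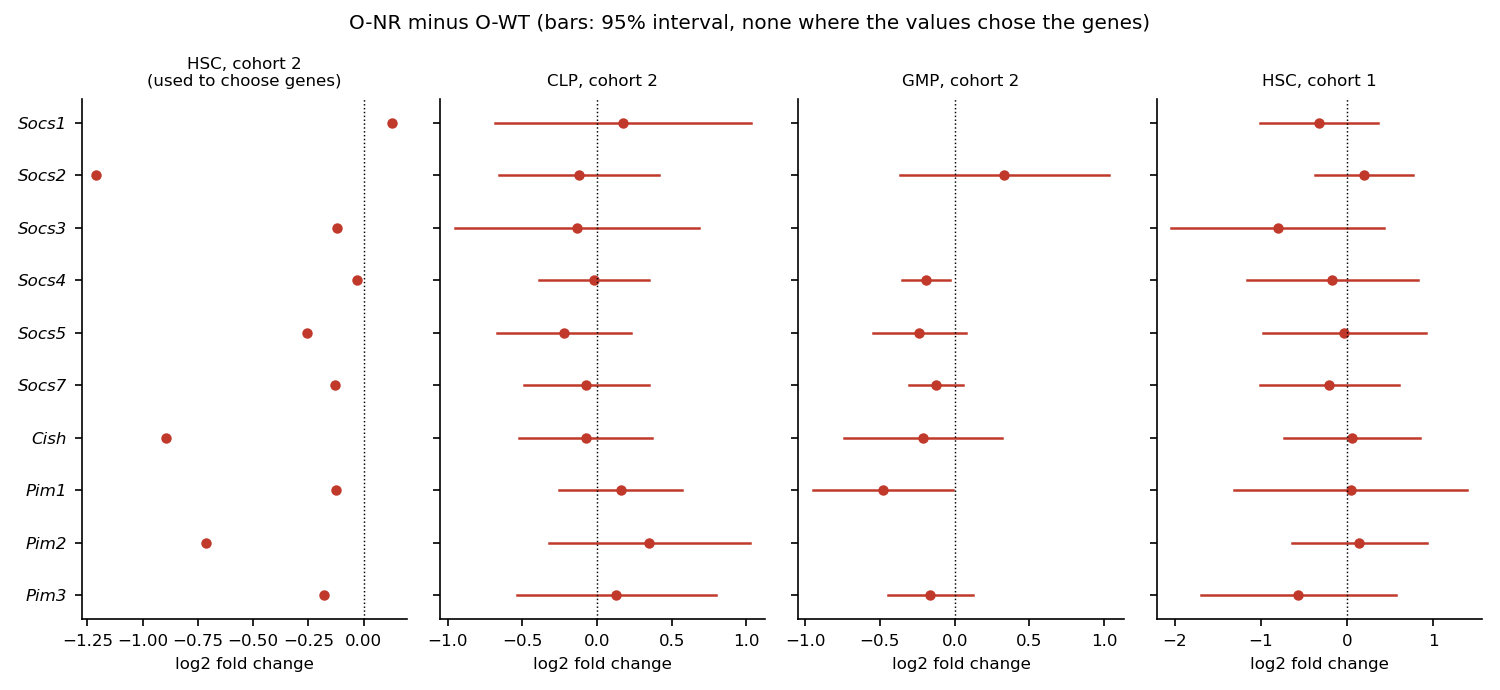
Fitted log2 differences O-NR minus O-WT of the 10 genes in HSCs, CLPs and GMPs of cohort 2 and in HSCs of cohort 1. The scale differs between panels, bars are 95% intervals (left out for HSCs of cohort 2, whose values are taken to have chosen the genes), and Socs1, Socs3 and Pim2 were not tested in GMPs. Socs2 and Pim2 lie at −1.21 and −0.71 in HSCs of cohort 2 and at 0.19 and 0.14 in HSCs of cohort 1.

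In CLPs, Socs2 and Pim2 overlapped between the groups. Socs2 measured 8.76, 11.8, 9.80 and 13.4 CPM in O-WT CLPs and 12, 10.3, 8.68 and 10.6 CPM in O-NR CLPs, and Pim2 8.87, 4.80, 4.5 and 6.19 against 6.57, 7.92, 8.43 and 8.96 CPM. In CLPs, 0 of 10 genes passed an unadjusted p under 0.01 (edgeR's quasi-likelihood test), where 0.412% of 19909 genes did (0.156% higher and 0.256% lower with NR), and 0 genes of any kind had an adjusted p under 0.05. At an unadjusted p under 0.05 the count of members was 0, and DESeq2 also called 0. All 10 genes overlapped between the groups, beside 2.4% of all genes that did not (1.23% lower with NR). The differences ran from −0.22 ± 0.22 for Socs5 to 0.35 ± 0.33 for Pim2, and the 95% intervals of the 10 genes lay within −0.95 and 1.03. None of the 6 gene lists of the pathway held a call.

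In GMPs, 0 of the 7 genes tested passed an unadjusted p under 0.01 (edgeR's quasi-likelihood test), where 0.986% of 13486 genes did, and 2 passed an unadjusted p under 0.05. Socs1, Socs3 and Pim2 did not reach 3 CPM in enough GMP libraries to be tested and held 13–63 reads a library. Pim1 measured 118, 133, 115 and 48.1 CPM in O-WT GMPs and 106, 52.9, 57.6 and 65.3 CPM in O-NR GMPs. The groups overlapped because O-WT replicate 4 lay below all O-NR libraries, and the log2 difference was −0.48 ± 0.22 (adjusted p = 0.997, edgeR's quasi-likelihood test). It was called without O-WT replicate 4 (−0.67), without O-NR replicate 1 (−0.71) and without the CPM filter (−0.53), but DESeq2 called 0 members. O-WT replicate 4 had the strongest receptor signal of the GMP libraries (2376 CPM), and over the 8 GMP libraries Pim1 ran against that signal (r = −0.804, rho = −0.833, r = −0.689 without the 2 most extreme). The 15 immediate early genes summed to 97.9–172 CPM in O-WT and 93.3–167 CPM in O-NR GMPs, and 10 of the 11 tested had a negative difference, with 0 called. The part of either measure in the result was not tested. The Pim1 levels carry TMM factors, which were 0.696 at the weakest receptor signal (O-WT replicate 2) and 1.04 at the strongest (O-WT replicate 4).

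Socs4 measured 51.3, 69.8, 58.5 and 51.1 CPM in O-WT and 50.7, 51.2, 44.5 and 48.0 CPM in O-NR GMPs, which overlapped. Its log2 difference of −0.19 ± 0.08 was not called (adjusted p = 0.997, edgeR's quasi-likelihood test) but was called without O-WT replicate 1 (−0.25), and on the TMM scale it too ran against the receptor signal over the 8 libraries (r = −0.847, rho = −0.857, r = −0.969 without the 2 most extreme). That correlation was not computed per total counted reads. None of the 7 genes tested was free of overlap, beside 1.42% of all genes that were (0.949% lower with NR). Socs2 went the other way without a call, at 0.33 ± 0.33, from 2.94 ± 1.1 to 3.65 ± 0.124 CPM. Of the pathway genes in GMPs, Il21r (−0.37 ± 0.11), Myc (−0.26 ± 0.08), Cxcr4 (−0.28 ± 0.08) and Ccnd2 (0.28 ± 0.09) passed an unadjusted p under 0.01, each with an adjusted p of 0.9052 in edgeR's quasi-likelihood test. The NR effect in CLPs minus that in GMPs was tested directly and called for 0 of 10 genes, where 0.415% of 20233 genes were called. DESeq2 called 0 members as well, and 1 passed an unadjusted p under 0.05 in edgeR, which was Pim1 (0.66 ± 0.31). Without GMP O-WT replicate 4 (0.95) or GMP O-NR replicate 1 (0.92), Pim1 was called.

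Cohort 1 gave an HSC measurement that the choice of genes is taken not to have used. The choice named NR HSCs without a cohort and was read here as cohort 2. Its libraries split by receptor signal, with O-NR replicates 1 and 2 and O-NR-RC replicates 2 and 3 at 14280–15260 CPM and the other 5 libraries at 4445–9082 CPM. Both O-WT libraries belong to the lower side. Socs4 measured 24.1–26.0 CPM in the 4 libraries of strong receptor signal and 44.5–66.3 CPM in the other 5, and Pim1 100.2–142 and 177–356 CPM. Socs1, Socs5, Socs7 and Pim3 also lay lower in all of the 4. Part of this depends on the scaling. Per total counted reads, without TMM factors, Socs4 still lay apart (30.8–34.1 and 38.6–44.1 CPM), while Pim1 overlapped (124–177 and 171–237 CPM), as did Socs1, Socs5, Socs7 and Pim3. Of the 10 genes, Socs2 alone lay higher in all of the 4, at 19.1–25.2 CPM against 13.8–18.5 CPM in the other 5, and at 25.4–31.3 against 9.15–16.2 CPM per total reads. HSC markers summed to 1818–1900.2 CPM in O-WT, 1039–2642 CPM in O-NR and 918–2472 CPM in O-NR-RC libraries.

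Socs2 measured 18.5 and 16.7 CPM in O-WT HSCs and 21.3, 25.2, 15.8 and 17.9 CPM in O-NR HSCs of cohort 1. The groups overlapped, and the log2 difference was 0.19 ± 0.26, with a 95% interval from −0.37 to 0.76. Without the 4 libraries of strong receptor signal it was −0.09. Pim2 measured 22.2 and 25.7 CPM in O-WT and 17.8, 25.1, 30.0 and 32.4 CPM in O-NR HSCs, with a log2 difference of 0.14 ± 0.36 and an interval from −0.64 to 0.92. The difference between the cohorts was not tested.

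Across the cohort 1 contrast of O-NR with O-WT, 0 of 10 genes passed an unadjusted p under 0.01 or 0.05 (edgeR's quasi-likelihood test), DESeq2 called 0, and 0.048% of 33350 genes passed 0.01 (0.021% higher and 0.027% lower). No member's groups were free of overlap, beside 5.84% of all genes (2.83% lower with NR). The largest difference was that of Socs3, −0.81 ± 0.57, with 54.8 and 25.1 CPM in O-WT and 13.9, 24.4, 23.2 and 29.7 CPM in O-NR HSCs. Without the 4 libraries of strong receptor signal, 2 genes passed, Socs3 at −0.62 and Pim1 at 0.47, with an unadjusted p under 0.01 in edgeR's quasi-likelihood test. In that setting 2.03% of all genes passed, and 2 O-WT and 2 O-NR libraries are left. O-WT replicate 1 carried much of the Socs3 difference, which was −0.14 without it.

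After withdrawal of NR, 0 of 10 genes were called in O-NR-RC against O-NR HSCs (0.036% of all genes) or against O-WT HSCs (0.078%), 0 passed an unadjusted p under 0.05, and DESeq2 called 0. The O-NR-RC libraries disagreed among themselves. Socs3 measured 86.8, 18.2 and 17.1 CPM, Pim1 356, 101 and 103 CPM, and Pim3 38.7, 8.16 and 10.7 CPM, with replicate 1 the highest of all cohort 1 libraries in each. Replicate 1 had the weakest receptor signal of cohort 1 (4445 CPM) and the other 2 had 15260 and 14610 CPM. The log2 difference of Socs3 from O-NR was 0.83 ± 0.51 with all libraries and −0.36 without O-NR-RC replicate 1, and that of Pim3 was 0.44 ± 0.47 and −0.58. Pim2 measured 31.7, 12.6 and 15.3 CPM, and its difference of −0.40 ± 0.32 was called without replicate 1 (−0.91). With only the libraries of weak receptor signal, replicate 1 alone stands for O-NR-RC and is assumed to vary like the others, and 2 members were called against O-NR (Socs3 at 1.62 and Pim3 at 1.07), where 3.91% of all genes were called, and 3 against O-WT, where 11% were. The part of the receptor signal in these results was not tested.

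**Figure D4:**
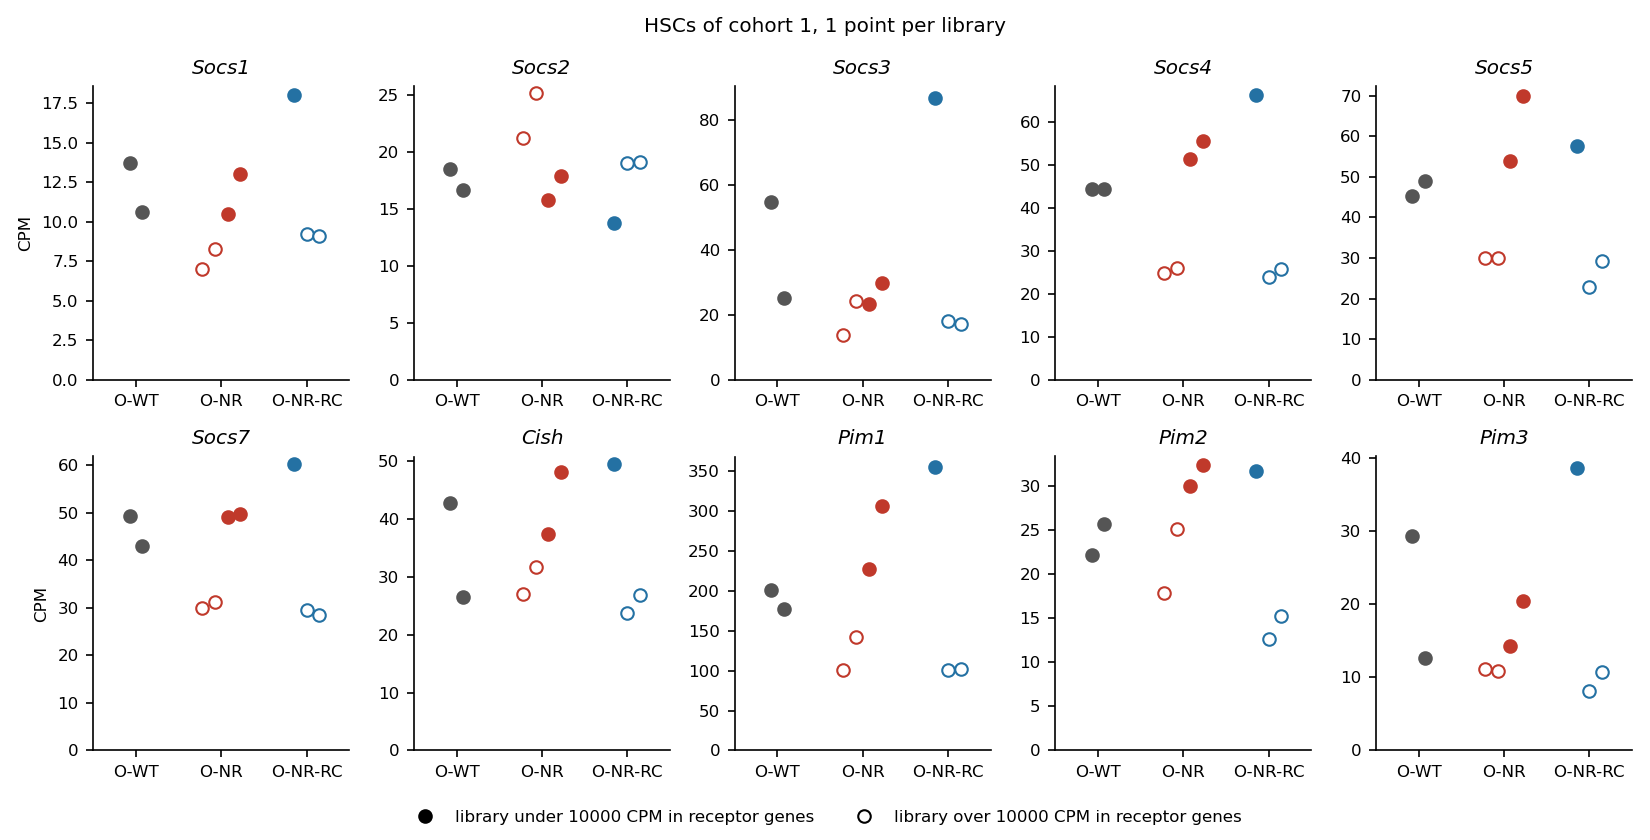
Levels of the 10 genes in the 9 HSC libraries of cohort 1, in CPM from 0, 1 point per library by group. Open points are the 4 libraries with over 10000 CPM in olfactory and vomeronasal receptor genes. In the Socs1, Socs4, Socs5, Socs7, Pim1 and Pim3 panels the open points lie below all filled points on the TMM scale drawn. Per total reads this holds for Socs4 only. For Socs2 the open points lie higher than all filled points.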

How the data were processed

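RNA from sorted cells was made into libraries with a stranded total RNA kit for low input, and the authors trimmed reads with trim galore and cutadapt, aligned them to mm10 with STAR on Gencode M22 features and counted them per gene with featureCounts. Versions of STAR and featureCounts are not given in the sources used here. The deposited files hold raw counts per gene symbol, 1 file per sample, and no other per-sample columns were left unused. Gene positions and exon lengths are from Gencode M21 of the same build, and a length counts all annotated exons of a gene, merged. The strand and multimapping settings are not given either.

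Counts were tested with edgeR 4.0.16 (R 4.3.3) by the quasi-likelihood test with TMM scaling, after keeping genes above 3 CPM in a number of libraries equal to the smallest group, with Benjamini-Hochberg adjustment over all genes tested. Cell types were compared within the 12 O-WT and within the 12 O-NR libraries of cohort 2, and NR and its withdrawal within each cell type and cohort. NR contrasts were called at an unadjusted p under 0.01 with no fold limit, and cell types at an adjusted p under 0.05 with a fold over 1.5, a split made here from thresholds the study names together. SE is the log2 difference divided by the root of F. Scripts were tested on simulated data. Printed CPM used TMM factors (0.666–1.58) computed within each cohort.

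The members and gene lists were chosen with earlier results of these data known. All 10 members are named, with the 3 genes of lowest p in each pathway list and direction among those called, shown in part (some are not reported here), and the 3 genes most like each member.

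Alternatives were size factor scaling (RLE), no CPM filter, DESeq2 1.42.0, replicate number as a block and leaving out each library. Added after the data were seen were cohort 1 without its 4 libraries over 10000 CPM in receptor genes, and cohort 1 with TMM factors from the 9079 genes above 20 CPM. In cohort 2 the deposited names carry the same number for a replicate's HSC, CLP and GMP library, which may mean 1 mouse but is not stated, and O-WT and O-NR libraries have different ones, so they share only the replicate numbers of the titles. Deviations of same-numbered libraries correlated above 0.1 in every pair only between O-WT HSCs and CLPs (0.131–0.405) and between O-NR-RC and O-WT HSCs of cohort 1 (0.455–0.481, 2 pairs). They were also positive in every pair between O-NR CLPs and GMPs (0.0423–0.279). No 2 libraries of a group agreed within sampling noise (lowest chi-square per degree of freedom 1.96 over 46 pairs, in O-NR HSC replicates 1 and 2 of cohort 1). Replicates 3 and 4 of that group stood at 3.84, but pairs of 1 or 2 with 3 or 4 stood at 53.06–71.75. O-NR-RC replicates 2 and 3 stood at 4.02 from each other and at 101.5 and 73.2 from replicate 1. The O-NR and O-NR-RC libraries of cohort 1 were thus not evenly spread.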

Additional observations from a re-analysis of the deposited data

Results flagged for a closer look

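Over the 70 sets of 4 libraries (10 genes in 7 groups), 2 held a library far from the other 3 by Dixon's criterion, where chance gives about 1 in 20, or 3.5. Socs1 in O-WT GMP replicate 4 stood at 1.96 CPM beside 2.52–2.64 CPM. Pim2 in O-WT HSC replicate 3 of cohort 2 stood at 33.9 CPM beside 48.6–51.2 CPM, nearest to the O-NR HSC libraries.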

How the results depend on the processing

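These checks followed 84 differences of single members. Most of those with NR in CLPs and all in O-NR-RC against O-WT HSCs were not among them. There, only the number of members called was followed. Of the alternatives other than leaving out a library, most kept the direction and call of the differences followed. Cohort 1 without its 4 libraries of strong receptor signal did not, and only 2 of the differences followed there kept both. With size factors, Pim3 in O-WT HSCs minus GMPs was −0.054 and Socs5 in O-WT CLPs minus GMPs −0.10, and with DESeq2 the same genes had −0.054 and −0.10. Without the CPM filter these were −0.10 and −0.29, Socs4 in O-WT HSCs minus CLPs was 0.028, and in O-NR mice Socs2 (0.0010) and Socs4 (0.079) in HSCs minus CLPs and Socs5 in CLPs minus GMPs (−0.070) also changed sign. With replicate number as a block, Pim1 in cohort 1 O-NR minus O-WT was −0.23, the call of Socs1 in O-WT CLPs over GMPs was lost, and no other call of a member changed. Over all genes, the block changed the number called with NR in CLPs from 82 to 184, and that in HSCs of cohort 2 from 126 to 253, where O-WT and O-NR share only a replicate number. The cause of these changes was not tested.

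Counts over all genes moved most. Without the filter, NR called 336 genes in CLPs, 366 in GMPs with 1 member, 283 in HSCs of cohort 2 and 486 for the difference between CLPs and GMPs. In cohort 1 (O-NR against O-WT, O-NR-RC against O-NR, O-NR-RC against O-WT) it called 80, 56 and 100 genes, DESeq2 called 64, 26 and 106, and size factors called 34 in the first and 71 in the last. TMM factors from genes above 20 CPM gave 5 in the first and 3 in the last. Without the 4 libraries of strong receptor signal the counts were 574, 1106 and 3117 genes, with 2, 2 and 3 members, and Socs2 in the first was −0.092.

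Leaving out each library in turn gave, over all genes tested, 42–149 genes for NR in CLPs, 62–305 in GMPs (0–1 members), 61–249 in HSCs of cohort 2, 34–210 for the difference (0–1 members), and in cohort 1 4–47, 7–135 (0–1 members) and 5–484 (0–2 members). The sign changes with NR in HSCs of cohort 2 are given with that contrast. Among the other differences followed, signs changed for Pim1 in O-WT CLPs minus GMPs (−0.42 to 0.061) and cohort 1 O-NR minus O-WT (−0.26 to 0.25), Pim3 in HSCs minus GMPs (O-WT −0.086 to 0.32, O-NR −0.022 to 0.23) and O-NR-RC minus O-NR (−0.58 to 0.79), Socs3 in O-NR-RC minus O-NR (−0.36 to 1.19), Socs4 in O-WT HSCs minus CLPs (−0.19 to 0.060) and O-NR CLPs minus GMPs (−0.087 to 0.057), Socs5 in CLPs minus GMPs (O-WT −0.11 to 0.11, O-NR −0.10 to 0.27) and Socs7 in O-NR HSCs minus CLPs (−0.061 to 0.27). Depth limits Socs1, Socs3 and Pim2 in GMPs, where a library held as few as 13 reads.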
